A study of Mus musculus with 5 samples.

Results

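The genes of splicing factors and of small nuclear and heterogeneous nuclear ribonucleoproteins were examined in cultured 4T1 cells, a tetraploid mouse mammary carcinoma line. Members were all listed genes whose symbol starts with Srsf, Hnrnp, Snrp, Sf3a, Sf3b, Lsm or Prpf, which gave 76 of the 13143 genes in the table (10 Srsf, 20 Hnrnp, 11 Snrp, 9 Sf3a or Sf3b, 13 Lsm and 13 Prpf genes), and all 76 passed the low-count filter. The 3 WT libraries were single-cell clones of blasticidin-selected Cas9-expressing cells that had received no guide. The 2 TAZ-KO libraries were single-cell clones with 1 shared guide against Wwtr1, the gene of TAZ, obtained from a single Cas9 clone after puromycin selection, and all cultures were untreated. Founder, guide vector and selection cannot be told apart from TAZ loss, and p-values measure the spread between clones, which have 1 library each. The names of both TAZ-KO columns contain YAP, whereas titles and genotypes in the labels say TAZ knockout and were followed. Values are always listed in the order WT clone 1, 2 and 3, then TAZ-KO clone 1 and 2. Wwtr1 was measured at 659.7, 312 and 315 CPM across the WT clones, next to 129 and 152 CPM across the knockouts (log2 difference -1.61, edgeR adjusted p = 0.19). It passed the threshold in DESeq2 (adjusted p = 0.00571), with 1 surrogate variable in edgeR (0.00205) and without WT clone 1 in edgeR (0.00193, log2 difference -1.16), and not in the other alternatives. The groups did not overlap, but an indel need not remove the transcript, so that this level is a weak check of the labels.

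The spliceosome removes introns from pre-mRNA. Its U1, U2, U4, U5 and U6 particles are each built on a small nuclear RNA that carries a ring of Sm proteins, or of Lsm proteins in the case of U6. SF3A and SF3B are the parts of the U2 particle that hold the branch point, and the Prpf proteins serve the U4/U6.U5 tri-particle and the catalytic core. SR proteins, encoded by Srsf genes, mostly promote the use of nearby splice sites, whereas many hnRNP proteins repress them. Counts per gene measure transcript levels of these factors and not splicing itself.

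The promoters of 4 members are shown because these genes stood at the ends of their families in the comparison of TAZ-KO with WT. Prpf6 and Sf3a1 were among the lowest, and Lsm6 and Hnrnpa2b1 were the highest of the Lsm and Hnrnp genes. TAZ binds DNA through TEAD factors, so the letters searched on both strands were GGAATG, the TEAD core. Other letters were CCAAT of the CCAAT box. The ETS motif was given as CCGGAAG. The MYC E-box was CACGTG, and all matches are in capitals. The windows run from 250 bases before to 50 after the start and come from RefSeq on GRCm38.p6 (chr2:181601069-181601368, plus strand for Prpf6, chr11:4160104-4160403, plus strand for Sf3a1, chr8:78821103-78821402, minus strand for Lsm6 and chr6:51469845-51470144, minus strand for Hnrnpa2b1, the first of its 2 windows). The RefSeq start of Prpf6 lies inside the GENCODE gene model.
Prpf6: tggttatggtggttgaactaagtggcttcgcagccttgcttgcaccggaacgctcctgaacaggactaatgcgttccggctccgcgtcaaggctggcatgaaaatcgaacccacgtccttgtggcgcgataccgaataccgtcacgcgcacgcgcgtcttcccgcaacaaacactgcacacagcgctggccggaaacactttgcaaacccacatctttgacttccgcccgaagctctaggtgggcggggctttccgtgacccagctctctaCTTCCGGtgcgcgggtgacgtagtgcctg
Sf3a1: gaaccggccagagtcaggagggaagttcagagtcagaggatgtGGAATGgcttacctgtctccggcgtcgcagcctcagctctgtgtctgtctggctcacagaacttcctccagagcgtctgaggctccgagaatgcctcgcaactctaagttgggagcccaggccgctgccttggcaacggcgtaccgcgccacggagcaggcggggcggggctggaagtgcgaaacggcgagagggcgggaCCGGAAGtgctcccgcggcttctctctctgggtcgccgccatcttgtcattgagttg
Lsm6: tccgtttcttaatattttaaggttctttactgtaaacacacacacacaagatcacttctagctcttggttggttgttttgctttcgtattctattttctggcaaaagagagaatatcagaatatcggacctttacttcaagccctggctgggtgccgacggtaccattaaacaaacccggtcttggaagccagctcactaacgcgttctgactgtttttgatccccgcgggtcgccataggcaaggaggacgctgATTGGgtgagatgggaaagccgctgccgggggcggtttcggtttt
Hnrnpa2b1: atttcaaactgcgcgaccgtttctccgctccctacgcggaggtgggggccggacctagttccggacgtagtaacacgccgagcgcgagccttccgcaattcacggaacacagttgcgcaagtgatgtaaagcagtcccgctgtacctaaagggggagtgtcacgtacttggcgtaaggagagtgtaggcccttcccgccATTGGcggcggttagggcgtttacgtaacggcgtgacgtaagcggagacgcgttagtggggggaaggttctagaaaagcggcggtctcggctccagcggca
Of the 65 members matched to this table, the first listed window held the TEAD letters in 5 (7.7%, against 11.8% of 9098 promoters of tested genes): Hnrnpl, Prpf3, Prpf4, Sf3a1 and Snrpb2. The ETS letters were in 20 (30.8% against 19.2%), the CCAAT letters in 32 (49.2% against 39.3%) and the E-box in 8 (12.3% against 10.5%). These shares are descriptions of letters and do not locate binding sites.

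No splicing gene passed the test for a difference between TAZ-KO and WT clones. Of the 76 members, 0 were called by the quasi-likelihood test of edgeR at an adjusted p of 0.05, against 0.0501% of 11975 genes tested (0.00835% higher and 0.0418% lower in TAZ-KO). An unadjusted p under 0.05 was reached by 4 members, Prpf6, Prpf18, Snrpb and Lsm6, against 17.4% of all genes, and the lowest adjusted p was 0.218 (Prpf6). DESeq2 also called 0 members, with a lowest adjusted p of 0.0627, while it called 5.53% of 12629 genes (2.25% higher and 3.29% lower). An unadjusted p under 0.05 was reached in DESeq2 by 7 of the 76 members, and by 2454 of all genes. A fit with 1 surrogate variable called 0 members and 4.41% of all genes (1.9% higher and 2.51% lower). Levels are counts divided by the TMM-scaled library total (CPM), log2 differences are edgeR log2 fold changes of TAZ-KO over WT, and means carry ± SD over 3 WT or 2 TAZ-KO clones.

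Splicing genes lay on both sides of 0 and none differed by as much as 2-fold. Positive log2 fold changes were found for 37 members and negative ones for 39, with a median of 0.00 beside -0.03 over all genes tested. The values ran from -0.84 (Lsm14a) to 0.67 (Lsm6), whereas 14% of all genes had an absolute log2 fold change of at least 1. The median absolute value was 0.23 against 0.38. The members also had higher counts (median of the mean count per library 1589.6 against 571), and their standard errors had a median of 0.24 against 0.30. The knockouts both exceeded the highest WT value in 16 members (21.1%, against 18.7% of all genes) and were both under the lowest WT value in 9 (11.8%, against 18.6%). Summed over all members, the level was 14974, 14075 and 15824 CPM for WT and 15631 and 15474 CPM for TAZ-KO, so that the groups overlapped.

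**Figure D1:**
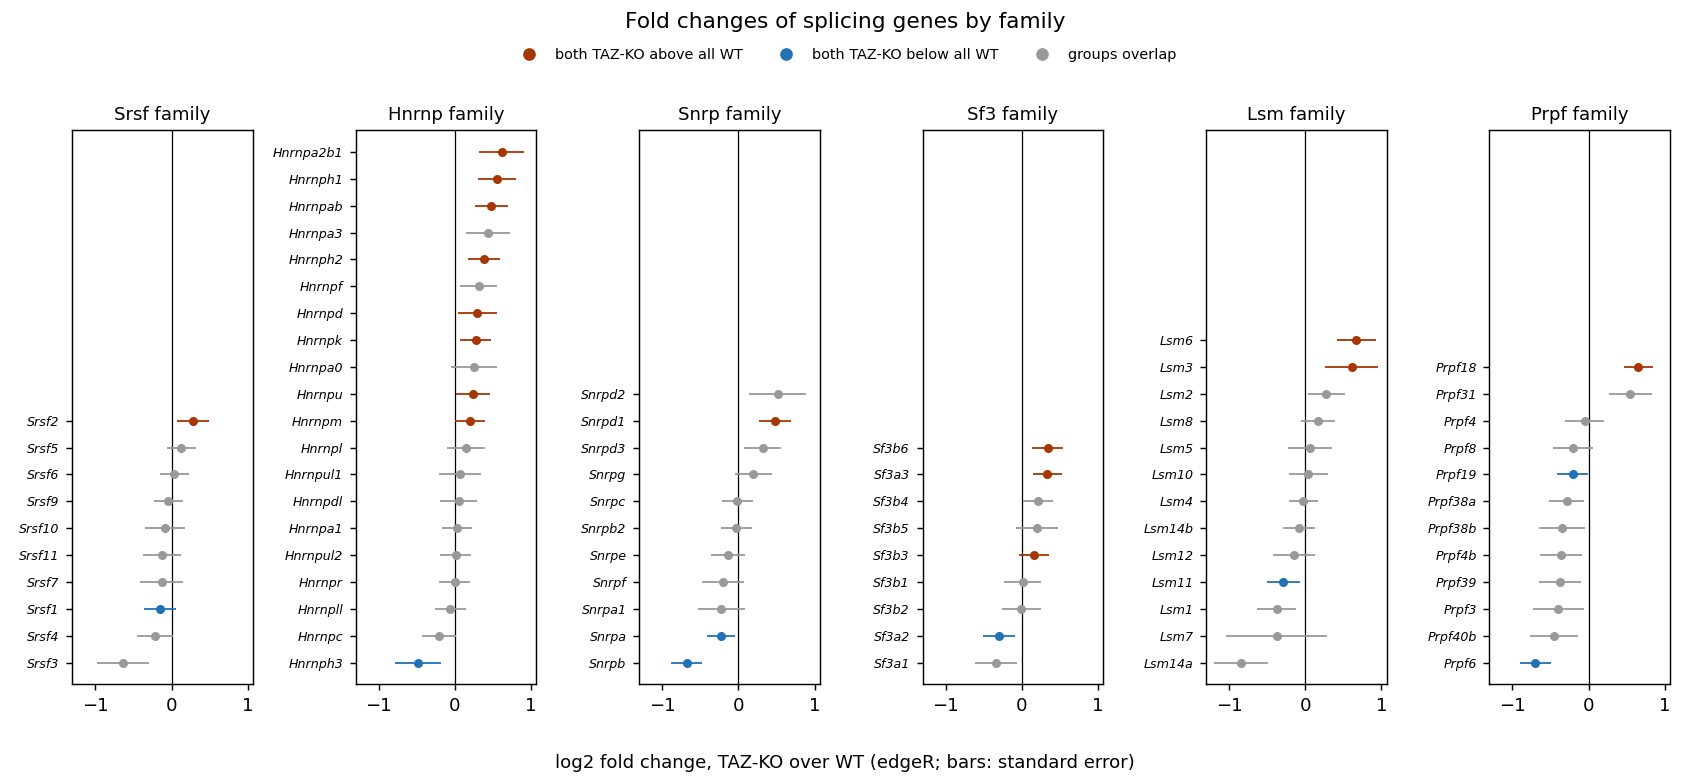
Log2 fold change (x axis, TAZ-KO over WT, edgeR) of genes in the 6 families, with bars of 1 standard error. Orange points mark genes whose knockouts both exceeded the WT range, blue points the reverse and grey points overlapping groups. In the Hnrnp panel 16 of 20 values are positive, and in the Prpf panel all values drawn but those of Prpf18 and Prpf31 are negative.

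The families differed in the side on which most members lay. Among Hnrnp genes 16 of 20 had a positive log2 fold change (median 0.22), and among Prpf genes 11 of 13 had a negative one (median -0.30). Srsf genes had 3 positive and 7 negative values (median -0.10), Snrp genes 4 and 7 (median -0.03), Sf3 genes 6 and 3 (median 0.16) and Lsm genes 6 and 7 (median -0.02). Over all genes 48% were positive. The mean of the Hnrnp genes, as log2 CPM minus the mean of the 5 libraries, was 0.06, -0.23 and -0.06 across the WT clones, next to 0.12 and 0.10 across the knockouts. Both TAZ-KO clones thus lay above the WT clones, with WT clone 1 next to them. For Prpf genes this mean was -0.15, 0.05 and 0.30 across the WT clones, next to -0.10 and -0.10 across the knockouts, and WT clone 1 lay below both TAZ-KO clones. The Sf3 mean (0.04, -0.13 and -0.01 across the WT clones, next to 0.10 and -0.01 across the knockouts) and the Snrp mean (0.03, -0.11 and 0.06 across the WT clones, next to 0.06 and -0.04 across the knockouts) overlapped between groups.

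**Figure D2:**
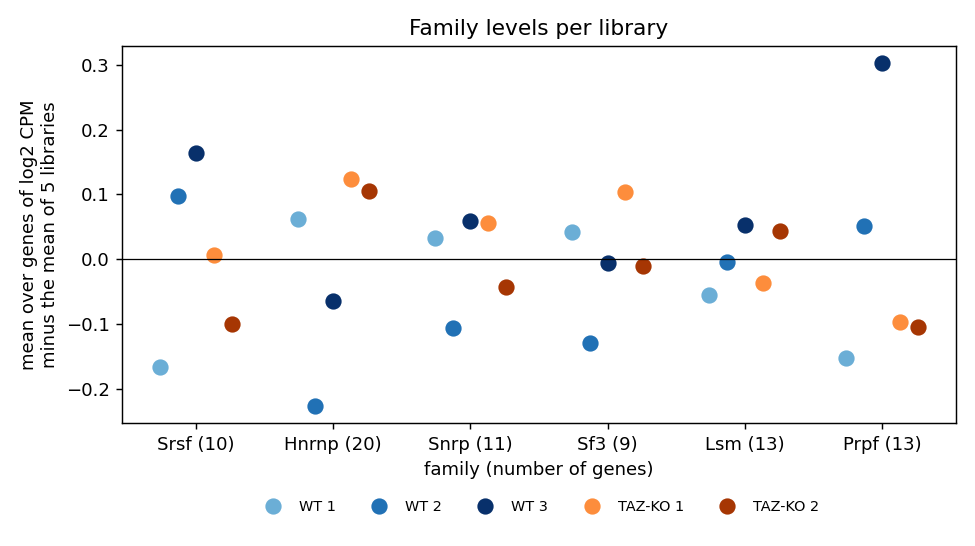
Family means per library: for each family (x axis, with its number of genes) the mean over genes of log2 CPM minus the mean of the 5 libraries (y axis). Blue points are WT clones and orange points TAZ-KO clones. In the Hnrnp family both TAZ-KO points lie above the WT points, and in the Prpf family WT clones 2 and 3 are highest and WT clone 1 lowest.

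Of the 20 hnRNP genes, 8 had both knockouts higher than any WT clone (against 18.7% of all genes) and 1 had both lower (against 18.6%). The largest positive differences were those of Hnrnpa2b1 and Hnrnph1. Hnrnpa2b1 (chromosome 6, 51460932 to 51469894), which binds pre-mRNA and sorts RNAs for transport, was measured at 688, 408 and 428 CPM across the WT clones, next to 764 and 789 CPM across the knockouts (log2 difference 0.61 ± 0.29 SE, edgeR adjusted p = 0.327). The groups did not overlap, and WT clone 1 was nearer to the knockouts than to WT clones 2 and 3. Hnrnph1, a G-tract binding regulator of alternative exons (chromosome 11, 50376990 to 50386528), was measured at 652, 515 and 427 CPM across the WT clones, next to 811 and 743 CPM across the knockouts (log2 difference 0.55 ± 0.25 SE, edgeR adjusted p = 0.318). Hnrnpab stood at 756, 627 and 749 CPM in WT versus 957 and 1020.3 CPM after knockout (log2 difference 0.48 ± 0.22 SE) and the X-linked Hnrnph2 at 38, 29.8 and 35.6 CPM in WT versus 47.3 and 42.2 CPM after knockout (log2 difference 0.38 ± 0.21 SE). The groups did not overlap for either gene, nor for Hnrnpd, Hnrnpk, Hnrnpu and Hnrnpm, whose log2 fold changes were 0.20 to 0.30. For Hnrnpd TAZ-KO clone 1 (505.5 CPM) was almost level with WT clone 1 (504.8 CPM). Hnrnpu, a nuclear scaffold protein, was at 826, 641 and 783 CPM in WT versus 876 and 897 CPM after knockout. Hnrnph3 was the 1 hnRNP gene with the knockouts under the WT range (17.5, 23.9 and 16 CPM in WT versus 15.7 and 11.7 CPM after knockout; log2 difference -0.48 ± 0.30 SE, edgeR adjusted p = 0.422), and TAZ-KO clone 1 was close to WT clone 3. Genes of chromosome 10, its location, had median log2 differences of 0.22 in TAZ-KO clone 1 and -0.28 in TAZ-KO clone 2 from the other libraries, and their part in the result was not tested.

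Hnrnpa1, a repressor of splice sites, varied least among the hnRNP genes, at 31.2, 32 and 31.6 CPM in WT versus 30.4 and 33.7 CPM after knockout (log2 difference 0.02 ± 0.20 SE). Its level has a limit: 46.4% of the 50-base stretches of its longest coding transcript also occur in 19 other annotated genes, so reads from it may be split or dropped. The same share was 67.3% for Hnrnpf, 37.8% for Hnrnpk, 29.0% for Hnrnpab and 28.2% for Hnrnpa3, and 2.4% for Hnrnpa2b1. It counts both strands and includes genes at the same place, such as Phykpl, which overlaps exons of Hnrnpab on the other strand. Such stretches concern the assignment of reads to a strand and not their split between places. Over all families the share, such overlaps included, exceeded 10% in 26 members and was 0 in 22. Hnrnpc, which packages nascent transcripts, was at 333, 404 and 443 CPM in WT versus 368 and 313 CPM after knockout (log2 difference -0.21 ± 0.23 SE). Genes of chromosome 14, its location, had a median log2 difference of -0.43 between TAZ-KO clone 2 and the other libraries, and the part of this in the low value of that clone was not tested. Hnrnpa0, which binds AU-rich mRNA, was high in WT clone 1 (436, 228 and 297 CPM in WT versus 384 and 379 CPM after knockout; log2 difference 0.25 ± 0.31 SE). Hnrnpa3 was at 35.1, 21 and 24.5 CPM in WT versus 40.9 and 31.8 CPM after knockout (log2 difference 0.43 ± 0.29 SE), with overlapping groups. The other genes of the family were Hnrnpl, a binder of CA repeats, Hnrnpll, Hnrnpdl, Hnrnpr, Hnrnpf, Hnrnpul1 and Hnrnpul2, with log2 differences of 0.14, -0.06, 0.05, 0.00, 0.31, 0.06 and 0.01 and overlapping groups.

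SR protein genes had log2 differences of -0.64 to 0.28, and in several of them WT clone 1 stood apart from the other WT clones. Srsf3, the smallest SR protein and a regulator of its own and other SR transcripts, was measured at 192, 397 and 300.5 CPM across the WT clones, next to 216 and 165 CPM across the knockouts (log2 difference -0.64 ± 0.34 SE, edgeR adjusted p = 0.367). WT clone 1 lay within the range of the TAZ-KO clones, and 31.5% of the 50-base stretches of this gene occur elsewhere. On chromosome 17, where it lies, the median log2 difference was 0.20 in TAZ-KO clone 1 and -0.27 in TAZ-KO clone 2, and its part was not tested. Srsf2, at 445, 361 and 389 CPM in WT versus 496 and 474 CPM after knockout (log2 difference 0.28 ± 0.21 SE), was the 1 SR gene whose knockouts exceeded the WT range. It overlaps exons of Mettl23 and Mfsd11 on the other strand, and whether counting used strand is not stated for these files. Over all families 21 members overlapped exons of another gene on the other strand, among them Lsm14a, Hnrnpab, Hnrnpu and Sf3b3. On the same strand 3 members did, Hnrnpm among them. Srsf1, the founding SR protein, was at 462, 475 and 558 CPM in WT versus 446 and 454 CPM after knockout (log2 difference -0.15 ± 0.21 SE), with both TAZ-KO clones just below the WT range. Srsf6 was at 396, 366 and 368 CPM in WT versus 394 and 379 CPM after knockout, and Srsf4, Srsf5, Srsf6 and Srsf9 had log2 differences of -0.22, 0.13, 0.04 and -0.04, all with overlapping groups. In Srsf7, Srsf10 and Srsf11 the lowest library was WT clone 1, for example 78.6, 120.3 and 129.9 CPM in WT versus 110.5 and 96.2 CPM after knockout for Srsf10. In all 10 SR genes WT clone 1 was nearer to the mean of the TAZ-KO clones than to that of WT clones 2 and 3 on the log2 scale.

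**Figure D3:**
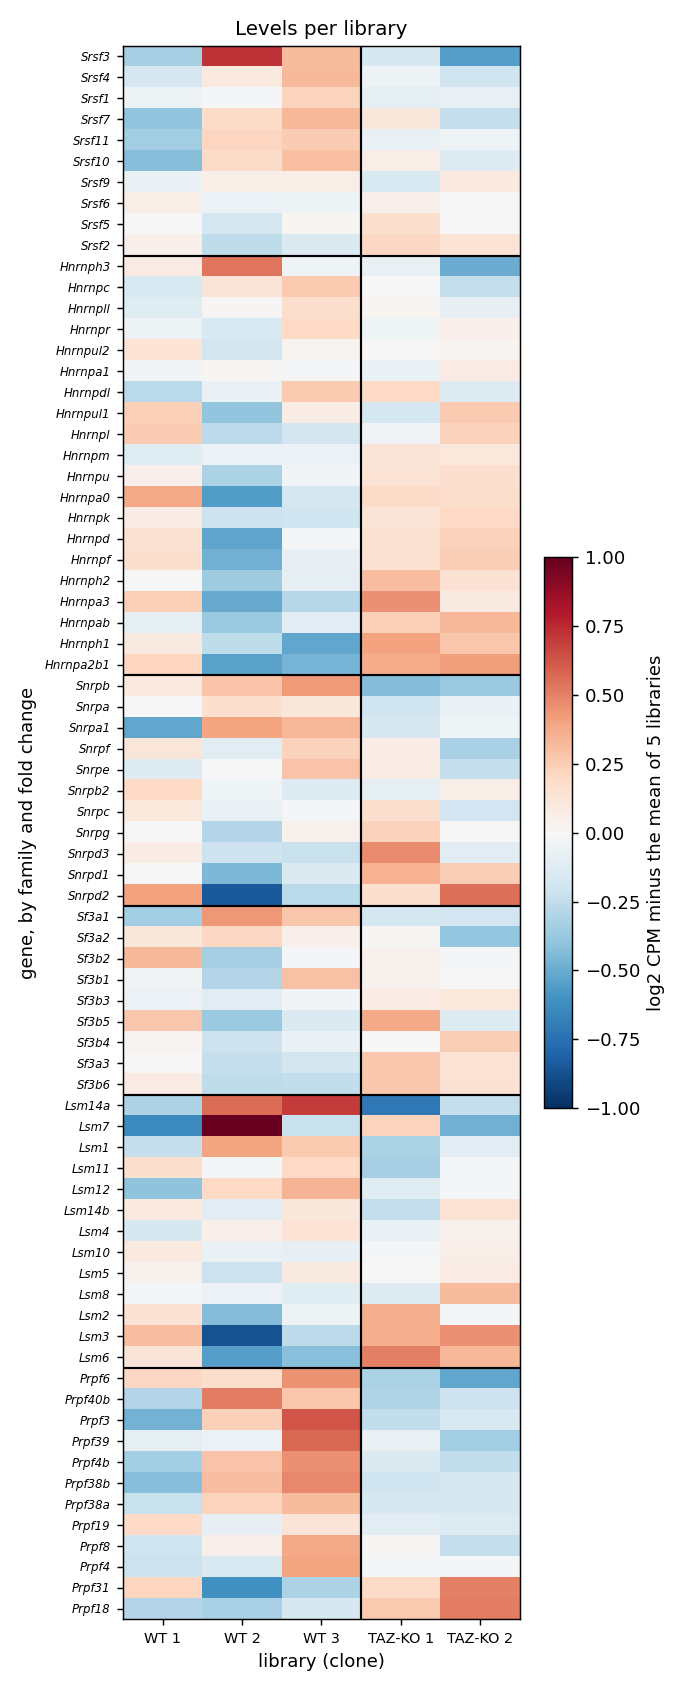
Levels of splicing genes (rows, by family and in order of fold change) in the 5 libraries (columns), as log2 CPM minus the mean of the 5 libraries. Colours end at -1 and 1, and Lsm7 in WT clone 2 lies beyond this range. WT clone 1 shares the colour of the TAZ-KO clones in many rows, among them Hnrnpa2b1, Snrpd2, Lsm3 and Prpf31.

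The genes of the Sm ring lay in both directions, with Snrpb lower and Snrpd1 higher in both knockouts than in any WT clone. Snrpb (chromosome 2, 130171414 to 130179403), which encodes SmB, was measured at 301, 341 and 377 CPM across the WT clones, next to 207 and 217 CPM across the knockouts. Its means were 339.8 ± 38.4 against 212 ± 6.69 CPM (log2 difference -0.68 ± 0.21 SE, edgeR adjusted p = 0.228), without overlap of the groups. Snrpd1, for SmD1 (chromosome 18, 10617775 to 10642079), was also without overlap (57.8, 42.3 and 52.2 CPM in WT versus 73.4 and 68.4 CPM after knockout; log2 difference 0.48 ± 0.21 SE, edgeR adjusted p = 0.304). Snrpd2, for SmD2, was at 68.8, 29.1 and 43.1 CPM in WT versus 58 and 76.2 CPM after knockout (log2 difference 0.51 ± 0.37 SE, edgeR adjusted p = 0.485), where WT clone 1 exceeded TAZ-KO clone 1. It lies on chromosome 7, whose genes had median log2 differences of 0.19 in WT clone 1, -0.28 in TAZ-KO clone 1 and 0.14 in TAZ-KO clone 2. The part of this was not tested. Snrpd3, for SmD3, was at 87.7, 72 and 71.4 CPM in WT versus 116 and 76.8 CPM after knockout (log2 difference 0.32 ± 0.24 SE), and only TAZ-KO clone 1 stood apart. On chromosome 10, where Snrpd3 lies, the median was 0.22 in TAZ-KO clone 1 and -0.28 in TAZ-KO clone 2, and its part was not tested. Per 100 Snrpd1 counts there were 519.8, 807 and 723 Snrpb counts for WT and 283 and 317 for TAZ-KO. This ratio was chosen after the values were seen and is given without a test. Snrpe, Snrpf and Snrpg, the remaining ring members, had log2 fold changes of -0.14, -0.20 and 0.20 with overlapping groups. For Snrpf 89.5% of the 50-base stretches occur in other genes, among them Ccdc38, which overlaps its exons on the other strand.

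The remaining Snrp genes were Snrpa, Snrpc, Snrpa1 and Snrpb2, with log2 differences of -0.23, -0.01, -0.23 and -0.03. Snrpa, of the U1 particle, was at 122, 136 and 131 CPM in WT versus 106 and 116 CPM after knockout (log2 difference -0.23 ± 0.19 SE), with both TAZ-KO clones below the WT range, and Snrpc, also of U1, at 80.9, 71.5 and 74.4 CPM in WT versus 83.9 and 65.8 CPM after knockout. Snrpa1 of the U2 particle was low in WT clone 1 (57.6, 108 and 104 CPM in WT versus 73.8 and 80.3 CPM after knockout; log2 difference -0.23 ± 0.31 SE), and its partner Snrpb2 had a log2 fold change of -0.03.

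Branch point factors lay within a 1.27-fold difference of WT in both directions. Sf3b6, which contacts the branch point (chromosome 12, 4817544 to 4827659), was measured at 103, 81.5 and 81.8 CPM across the WT clones, next to 117 and 107 CPM across the knockouts (log2 difference 0.34 ± 0.20 SE, edgeR adjusted p = 0.403). Sf3a3 was at 92, 78 and 80.9 CPM in WT versus 110.3 and 101 CPM after knockout (log2 difference 0.34 ± 0.19 SE) and Sf3b3 at 379, 366 and 387 CPM in WT versus 418 and 424 CPM after knockout (log2 difference 0.16 ± 0.19 SE). In these 3 genes the knockouts exceeded the WT range. Sf3a1, whose promoter held the TEAD letters, was measured at 204, 348 and 313 CPM across the WT clones, next to 228 and 226 CPM across the knockouts (log2 difference -0.34 ± 0.28 SE, edgeR adjusted p = 0.526), so that WT clone 1 was lowest. Sf3a2 was at 171, 183 and 164 CPM in WT versus 160.2 and 122 CPM after knockout (log2 difference -0.30 ± 0.21 SE). In TAZ-KO clone 2, its lowest library, genes of chromosome 10 had a median log2 difference of -0.28, and the part of this was not tested. Sf3b1, the largest subunit and the target of splicing modulator drugs, was at 479.9, 402 and 604 CPM in WT versus 508 and 490.2 CPM after knockout (log2 difference 0.01 ± 0.25 SE), and the further subunits Sf3b2, Sf3b4 and Sf3b5 had log2 differences of -0.01, 0.21 and 0.20.

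The Lsm family held the extremes in both directions. Lsm14a, a P-body protein of mRNA storage and decay and not a spliceosome part (chromosome 7, 34344646 to 34393315), had the lowest fold change of all members. It was measured at 175, 319 and 352 CPM across the WT clones, next to 132 and 184 CPM across the knockouts, with means of 282 ± 94.2 against 158 ± 36.5 CPM (log2 difference -0.84 ± 0.36 SE, edgeR adjusted p = 0.297). WT clone 1 lay between the TAZ-KO clones. The genes of chromosome 7 had a median log2 difference of -0.28 in TAZ-KO clone 1 and 0.14 in TAZ-KO clone 2, and the part of this was not tested. Lsm6 (chromosome 8, 78804865 to 78821140) and Lsm3 (chromosome 6, 91515928 to 91522625) are subunits of the ring that binds U6 RNA and of the ring that promotes decapping. Lsm6 was measured at 53.3, 33.4 and 36.5 CPM across the WT clones, next to 69.2 and 61.5 CPM across the knockouts, or 41.1 ± 10.7 against 65.4 ± 5.44 CPM (log2 difference 0.67 ± 0.26 SE, edgeR adjusted p = 0.276), and Lsm3 was measured at 38.9, 17.1 and 26.2 CPM across the WT clones, next to 40.3 and 43.1 CPM across the knockouts (log2 difference 0.61 ± 0.35 SE, edgeR adjusted p = 0.399). The groups did not overlap for either gene, and for Lsm3 the margin over WT clone 1 was smaller than the range of the WT clones. Their ring partners Lsm2, Lsm4, Lsm5 and Lsm8 had log2 fold changes of 0.28, -0.02, 0.06 and 0.17. Lsm7 had 15 to 56 counts per library (1.02, 3.44 and 1.36 CPM in WT versus 1.85 and 1.13 CPM after knockout), too few for a firm value (SE 0.66). Lsm1, which is particular to the decapping ring, was at 32.3, 49.7 and 45.3 CPM in WT versus 30.5 and 35 CPM after knockout (log2 difference -0.37 ± 0.26 SE). Lsm11 and Lsm10 belong to the U7 particle, which trims histone mRNA. Knockouts lay under the WT range for Lsm11 (38.3, 34.1 and 39.4 CPM in WT versus 27.3 and 33.8 CPM after knockout; log2 difference -0.29 ± 0.21 SE), whereas Lsm10 lay between 10.7 and 12.1 CPM. Lsm14b and Lsm12, neither of them a ring subunit, had log2 differences of -0.08 and -0.15.

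**Figure D4:**
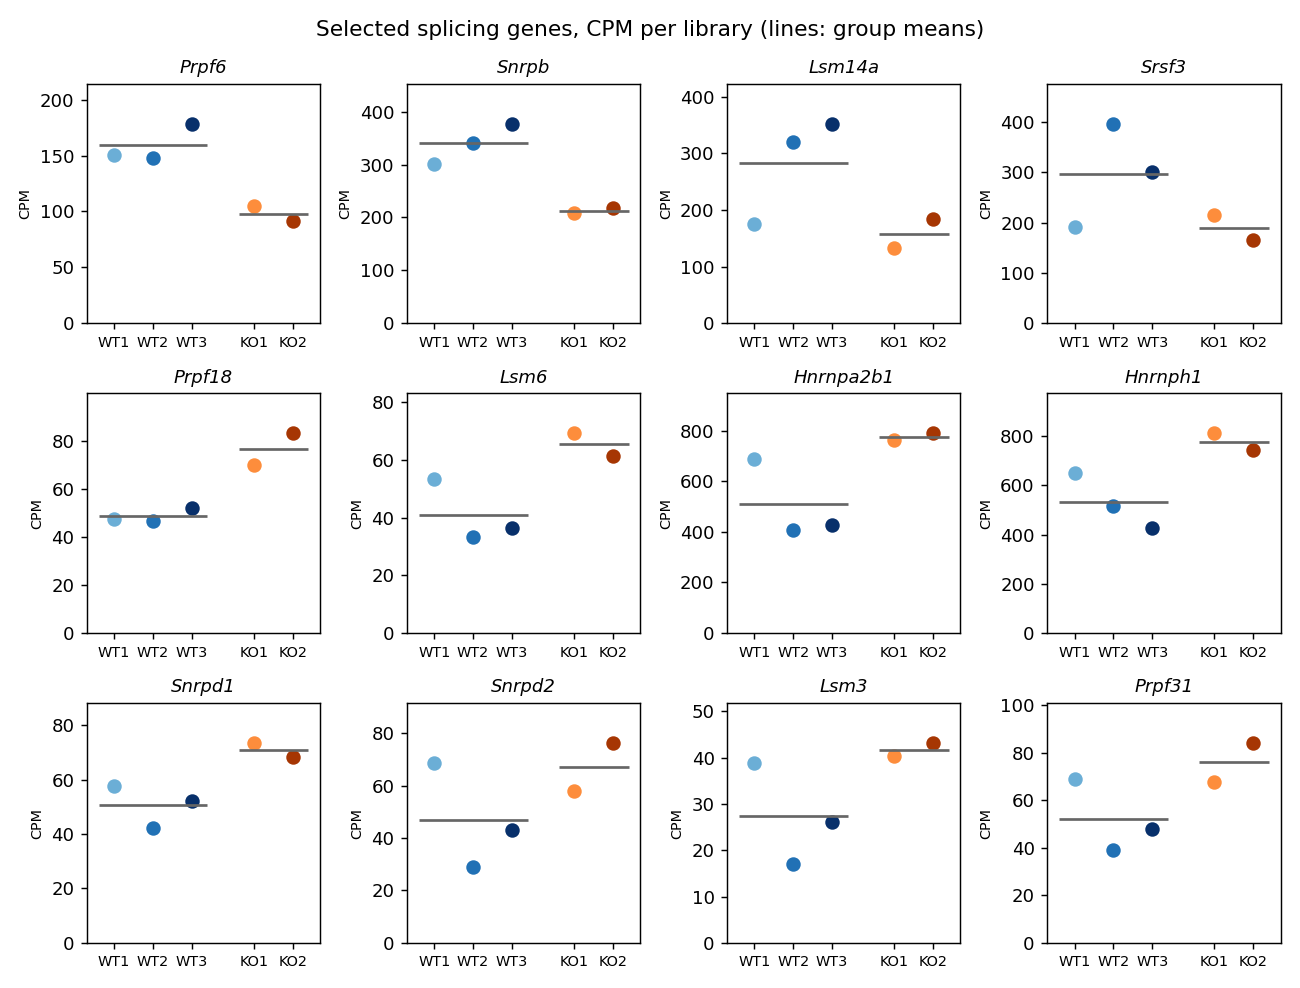
Levels of 12 splicing genes in CPM (y axes, starting at 0) in WT clones 1 to 3 (blue) and TAZ-KO clones 1 and 2 (orange), with lines at the group means. The TAZ-KO points lie below all WT points for Prpf6 and Snrpb and above them for Prpf18, Lsm6, Hnrnpa2b1, Hnrnph1, Snrpd1 and Lsm3.

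Prpf genes included the members nearest to the threshold. Prpf6, which bridges the U5 and U4/U6 particles (chromosome 2, 181591868 to 181655660), was measured at 151, 148 and 179 CPM across the WT clones, next to 105 and 91.1 CPM across the knockouts, or 159 ± 17.1 against 98 ± 9.83 CPM (log2 difference -0.70 ± 0.20 SE, edgeR adjusted p = 0.218; adjusted p = 0.0627 in DESeq2). Both TAZ-KO clones lay below the WT range. Prpf18, a factor of the second catalytic step (chromosome 2, 4622058 to 4652113), was measured at 47.6, 46.7 and 52.2 CPM across the WT clones, next to 70.0 and 83.1 CPM across the knockouts, or 48.8 ± 2.94 against 76.6 ± 9.28 CPM (log2 difference 0.65 ± 0.19 SE, edgeR adjusted p = 0.219; adjusted p = 0.0927 in DESeq2). Here the 3 WT clones were close together and both TAZ-KO clones above them. Prpf31, of the U4/U6 particle, was at 69, 39 and 47.9 CPM in WT versus 67.8 and 84 CPM after knockout (log2 difference 0.55 ± 0.29 SE), with WT clone 1 within the range of the TAZ-KO clones. It overlaps exons of Gm15927 on the other strand. Prpf31 lies on chromosome 7, with median log2 differences of 0.19 in WT clone 1, -0.28 in TAZ-KO clone 1 and 0.14 in TAZ-KO clone 2, whose part was not tested.

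The other 10 Prpf genes all had negative log2 differences, down to -0.46 for Prpf40b. Prpf19, a ubiquitin ligase of the catalytic complex, was at 327, 268 and 312 CPM in WT versus 263 and 259 CPM after knockout (log2 difference -0.21 ± 0.20 SE), and both knockouts lay under the WT range. For Prpf3, Prpf4b, Prpf38b and Prpf40b WT clone 1 was below or within the TAZ-KO range, as in Prpf3 (101, 166 and 217 CPM in WT versus 118 and 126 CPM after knockout; log2 difference -0.40 ± 0.33 SE, edgeR adjusted p = 0.542). Prpf8, the central scaffold of the spliceosome, was at 649, 776 and 971 CPM in WT versus 752 and 633 CPM after knockout (log2 difference -0.21 ± 0.26 SE). Prpf4, Prpf38a and Prpf39 had log2 differences of -0.05, -0.29 and -0.38.

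Prpf6, Snrpb and Prpf18 all lie on chromosome 2, whose 922 tested genes had median log2 differences of -0.20 in TAZ-KO clone 1 and -0.23 in TAZ-KO clone 2 from the other libraries. The log2 fold changes of TAZ-KO over WT were -0.70 for Prpf6, -0.68 for Snrpb and 0.65 for Prpf18. The medians set 1 clone against all other libraries, the other knockout included, and so are on another scale. Further members on this chromosome, Hnrnpa3, Lsm14b, Snrpb2 and Srsf6, had values of -0.08 to 0.43. The part of the chromosome in these levels was not tested. Chromosome 16, at -0.56 in TAZ-KO clone 1, holds 0 members.

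In most splicing genes WT clone 1 stood with the knockouts. In 59 of 76 members (77.6%, against 64.5% of all genes) WT clone 1 was nearer on the log2 scale to the mean of the TAZ-KO clones than to that of WT clones 2 and 3. The widest ranges among WT clones, 1.64, 1.24, 1.18 and 1.10 on the log2 scale, were those of Lsm7, Snrpd2, Lsm3 and Prpf3, and the median range was 0.43 against 0.65 over all genes. Without WT clone 1, edgeR called 22 members, 11 higher and 11 lower in TAZ-KO clones (against 19.1% and 19.7% of all genes, 38.7% in all). This fit leaves out the clone that in those 59 members lay nearer to the knockouts. Those that rose were Hnrnpa2b1 (log2 difference 0.90, edgeR adjusted p = 0.00543), Lsm6 (log2 difference 0.91, edgeR adjusted p = 0.00459), Prpf31, Lsm3, Hnrnph1, Snrpd2, Prpf18, Snrpd1, Hnrnpa3, Sf3b6 and Hnrnpa0. Those that fell were Lsm14a (log2 difference -1.09, edgeR adjusted p = 0.00494), Snrpb (log2 difference -0.76, edgeR adjusted p = 0.00847), Prpf6, Srsf3, Prpf4b, Prpf3, Prpf38b, Sf3a1, Lsm1, Snrpa1 and Prpf40b. Leaving out WT clone 2 or WT clone 3 instead gave 0 calls in edgeR, among members and among all genes alike. An unadjusted p under 0.05 was then reached by 2 members in each fit, against 998 and 1063 of all genes. These 0 calls are thus not particular to splicing genes. Fits without 1 TAZ-KO clone rest on a single knockout, and their calls are not read here.

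S phase genes, as a measure of proliferation, had WT clones in the same order as the Hnrnp genes, with both knockouts above them. The mean of 20 such genes was 0.34, -0.84 and -0.60 across the WT clones, next to 0.52 and 0.59 across the knockouts, and the part of this in the Hnrnp levels was not tested. All 20 had positive log2 differences, and 1, Rrm2 of ribonucleotide reductase, was called by DESeq2 but not by edgeR (169, 88.8 and 80.9 CPM in WT versus 408 and 423 CPM after knockout; log2 difference 1.88 ± 0.35 SE, edgeR adjusted p = 0.136; DESeq2 adjusted p = 2.50e-04). All 7 epithelial markers had counts in every library, but their levels differed widely. Krt8 was at 271 to 1328 CPM, Cdh1 at 246 to 658 CPM and Epcam at 24.5 to 119.5 CPM. Cldn7 was at 2.53 to 3.73 CPM in WT and at 0.86 and 0.27 CPM in TAZ-KO, the last value near the floor. Of 6 immune markers 4 were listed, summing to 1.42 to 7.32 CPM, of 3 endothelial markers 2 were listed, summing to 0.31 to 1.49 CPM, and of 5 fibroblast markers 4 were listed, led by Pdgfra at 26.3 to 117 CPM, with Col1a1 up to 6.75 CPM. The epithelial sum was 2358 to 4565 CPM. All 4 sums, the epithelial one included, were highest in WT clone 1, and their part in its levels was not tested. Total counts were 14695384 to 16452147 per library, and members had 15 to 15736 counts in a library. A floor of 3 counts was 0.184 to 0.203 CPM.

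Other genes of the splicing machinery were counted in 8 further lists with 140 tested genes. None was past the threshold in edgeR or DESeq2, against 0.0501% and 5.53% of all genes. An unadjusted p under 0.05 was reached by 11 in edgeR, against 17.4% of all genes. In DESeq2 it was reached by 14, where 2454 of all genes reached it. Median log2 fold changes ran from -0.32 for 20 SR kinases and SR-related coactivators, of which 8 had both knockouts under and 1 had both over the WT range, to 0.13 for 25 tissue-type regulators, of which 8 had both over and 2 had both under it (against 18.7% over and 18.6% under for all genes). In the first list Dyrk1a, a kinase of splicing factors, was at 93.8, 105 and 122 CPM in WT versus 55.3 and 74.3 CPM after knockout (log2 difference -0.72 ± 0.23 SE, edgeR adjusted p = 0.235). In the second Celf2, a regulator of muscle and brain exons, was at 78.9, 113 and 119 CPM in WT versus 151 and 322 CPM after knockout (log2 difference 1.19 ± 0.36 SE, edgeR adjusted p = 0.225), with TAZ-KO clone 2 far above the rest. Among step factors and the Prp19 complex (26 genes, median -0.15), Smndc1 was at 93.2, 209 and 271 CPM in WT versus 80.2 and 82.7 CPM after knockout (log2 difference -1.23 ± 0.45 SE, edgeR adjusted p = 0.262).

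The remaining lists had medians of -0.10 for snRNP assembly to 0.09 for recognition of the branch point and 3 prime splice site. In the minor spliceosome, which removes rare introns (10 genes, median -0.05), Snrnp25 was at 9.63, 4.48 and 4.26 CPM in WT versus 15.7 and 11.5 CPM after knockout (log2 difference 1.15 ± 0.44 SE, edgeR adjusted p = 0.272). Smg1, a kinase of nonsense-mediated decay, was at 165, 244 and 291 CPM in WT versus 139.8 and 131 CPM after knockout (log2 difference -0.78 ± 0.28 SE, edgeR adjusted p = 0.262), in a list of 15 genes with a median of 0.03. Gemin4 of the SMN complex, which loads Sm rings, was at 38.4, 22.5 and 20.4 CPM in WT versus 47.8 and 43.6 CPM after knockout (log2 difference 0.76 ± 0.32 SE), Rbm17 at the 3 prime splice site at 164, 142 and 184 CPM in WT versus 199 and 246 CPM after knockout (log2 difference 0.45 ± 0.22 SE) and Ppih of the tri-particle at 8.88, 3.62 and 5.92 CPM in WT versus 11.7 and 10.2 CPM after knockout (log2 difference 0.84 ± 0.42 SE). In these 8 genes the groups did not overlap, by which they were chosen.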

How the data were processed

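Cultured 4T1 clones (3 WT, 2 TAZ-KO) were profiled by RNA sequencing. The authors deposited raw counts per gene, which were used here, and a size-factor normalised signal, regularised log2 values and their own comparison (log2 fold change, p-value and adjusted p-value), which were not. The methods describe the UTAP pipeline, with cutadapt for trimming, STAR for mapping to GRCm38 (mm10 in the submitters' notes), DESeq2, and sva as batch correction. Labels call the libraries mRNA-seq, the methods a bulk form of MARS-seq. Every listed gene had more than 5 counts in at least 1 library.

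All genes were fitted by genotype with edgeR 4.0.16 in R 4.3.3 (quasi-likelihood, TMM, filterByExpr), and p-values were adjusted after Benjamini and Hochberg. The SE equals the log2 value over the root of the F statistic. CPM used TMM-scaled totals, and log2 CPM a prior count of 2. Permuting 3 against 2 libraries exactly gives 10 splits and no p below 0.1. Floors cover counting error only. Alternatives were DESeq2 1.42.0, limma-voom (limma 3.58.1), 1 surrogate variable (sva 3.50.0), the replicate number as a block, other scalings and filters, and leaving out each library. The script was tested on simulated data. Coordinates are those of GENCODE vM21. Shared 50-base stretches were counted on both strands of its transcripts.

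Named members were the highest and lowest of each family, up to 6 per direction with the largest non-overlapping difference and at least 1 log2 CPM, up to 4 per direction by p without WT clone 1, up to 4 by WT range, and any called by edgeR or DESeq2. Each other list gave its called genes and its largest non-overlapping gene. Other members are given for their place in a complex, after their values were seen. Counts and family values cover all members, but 1 Prpf gene is not reported here by itself or drawn per gene. Members and lists were chosen with earlier results of these data known.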

Additional observations from a re-analysis of the deposited data

How the results depend on the processing

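The count of members called stayed at 0 with DESeq2 size factors, total counts, both other low-count filters, DESeq2, limma-voom, 1 surrogate variable and the replicate block, and ranged from 0 to 22 when 1 library was left out, with 22 without WT clone 1. Over the other splicing lists, with 140 genes tested in the main fit, it ranged from 0 to 43 in the same way. Without WT clone 1, 15 were higher and 28 lower, against 19.1% and 19.7% of all genes. The count over all genes was 6, against 10 with no low-count filter, 699 with DESeq2, 528 with 1 surrogate variable and 0 with the replicate block, and 0 to 4598 when 1 library was left out. Under the replicate block 898 genes and 0 members had an unadjusted p under 0.05. The labels tie replicate numbers to no shared culture, so the clones were not taken as paired. The deviations of same-numbered clones correlated at -0.12 and -0.13. With 2 knockouts each such value is the negative of that with the other knockout, so these are a weak check of pairing. The median log2 fold change of the members stayed between -0.015 and 0.0484, and between -0.0354 and 0.0234 when 1 library was left out. Directions of the 21 named members held in all alternatives except with 1 surrogate variable, where Sf3a1 (0.0081), Lsm7 (0.29) and Prpf3 (0.082) turned positive, and without WT clone 2, where Lsm7 was at 0.33 (-0.76 without TAZ-KO clone 1). Of these members, 15 passed the threshold without WT clone 1, but up to 4 per direction were named by their p in that fit. Of all 76 members 22 passed it there, against 38.7% of all genes. The cause was not tested. Lsm7 did not pass the filter of 50 counts in 2 libraries. Members with few counts, such as Lsm7 and Lsm5, and those that share sequence with other annotated genes allow the least firm statements.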
